A study of Homo sapiens with 12 samples.

Results

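The 39 genes described here encode enzymes that make activated amino sugars through the hexosamine pathway and enzymes that build, trim, branch and cap glycans on proteins. They were taken by name, from a list of 39 genes sorted into 7 steps of the pathway, and all 39 passed the filter on low counts, out of 34643 genes in the table and 15419 genes tested. The list was chosen with earlier results of these data known. Its counts are set beside the share of all genes tested (background) as a description and not as a test of the set. RNA-seq was measured in LNCaP, a human cell line from prostate cancer that responds to androgen. The cells carried a lentiviral shRNA, driven by the U6 promoter of pLKO.1 and selected with puromycin, that was either a scrambled control (shScramble) or directed at TMEFF2, a transmembrane protein of the prostate (shTMEFF2). After 24 h in medium with charcoal-stripped serum, which is low in androgen, each line received 10 nM dihydrotestosterone, the most potent natural androgen, or ethanol vehicle for another 24 h. This gave 4 groups of 3 libraries: shScramble −DHT, shScramble +DHT, shTMEFF2 −DHT and shTMEFF2 +DHT. The 3 repeats were treated and extracted separately but drawn from only 2 transductions, so p-values measure a spread that is partly within a transduced pool.

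Library totals lay between 19450866 and 22612046 estimated counts. The mRNA of TMEFF2, which the shRNA targets, was at 77.8, 73.8 and 103 CPM (counts scaled to library size) in shScramble −DHT and at 68.6, 39.3 and 81.7 CPM in shTMEFF2 −DHT. With DHT it was at 173, 117 and 169 CPM in shScramble and at 142, 90.1 and 114 CPM in shTMEFF2. The lines overlapped at both DHT levels, and the log2 difference was −0.43 ± 0.25 (SE, edgeR adjusted p = 0.50) without DHT and −0.41 ± 0.25 (adjusted p = 0.30) with DHT, neither of which passed the test. The study itself reported silencing of TMEFF2 by shRNA in LNCaP cells, from Western blots and mRNA levels. Which of its shRNAs was sequenced is not given in the sources used here. All 8 luminal prostate markers were measured in every library, between 20.7 and 7737 CPM. Of 14 markers of basal, stromal, endothelial and blood cells, 7 passed the filter and 3 had at most 3 counts in any library (KRT5 was at 0). Their summed level was 43.6 to 54.2 CPM in shScramble −DHT, 32.8 to 34.4 CPM in shScramble +DHT, 55.8 to 66.1 CPM in shTMEFF2 −DHT and 44.3 to 53.4 CPM in shTMEFF2 +DHT. This sum moved with the groups, and its part in the results was not tested. Of the 39 genes, 35 overlap another annotated gene and 16 overlap one on the same strand (GENCODE, GRCh38), so reads of overlapping transcripts may be shared. In bulk RNA, fewer cells of a kind and less RNA per cell cannot be told apart.

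As background, the hexosamine pathway turns fructose 6-phosphate into UDP-N-acetylglucosamine, the donor sugar for the first steps of N-glycans, for chondroitin and heparan chains and for O-GlcNAc. N-glycans are preassembled on the lipid dolichol, moved to asparagines of nascent proteins by the oligosaccharyltransferase of the endoplasmic reticulum, and then trimmed and rebuilt in the Golgi. Mucin-type O-glycans start in the Golgi with N-acetylgalactosamine on serine or threonine and are extended, branched or capped with sialic acid. The prostate epithelium is a secretory tissue, and androgen is known to control much of its secretory output.

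DHT changed 18 of these genes in shScramble and 5 in shTMEFF2. A change had to reach 1.5-fold with an adjusted p no higher than 0.05, and the 18 of 39 genes in shScramble were 13 higher and 5 lower, where 11.9% of all genes tested passed (5.45% higher and 6.45% lower). In shTMEFF2, the 5 of 39 were 4 higher and 1 lower, against 4.88% of all genes (3.28% higher and 1.6% lower). On the adjusted p alone the counts were 27 of 39 (background 27%) and 11 of 39 (background 13.1%). Without shTMEFF2 +DHT replicate 3 the shTMEFF2 counts were 3 at 1.5-fold and 4 on the adjusted p, and the latter count was 5, 5 and 6 without shTMEFF2 −DHT replicate 1, shTMEFF2 −DHT replicate 2 and shTMEFF2 +DHT replicate 2. The median log2 response of the 39 genes was 0.38 in shScramble and 0.14 in shTMEFF2, beside −0.01 and −0.02 over all genes tested. The 3 libraries with DHT lay wholly above the 3 without it for 22 genes in shScramble (21.3% of all genes) and for 15 in shTMEFF2 (15.6%), and wholly below for 9 (20.5%) and 6 (15.7%).

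More of the 39 genes differed between the lines with DHT (12) than without it (0). Without DHT, 0 of 39 genes differed between shTMEFF2 and shScramble in the edgeR test, where 0.571% of all genes did (0.298% higher and 0.272% lower). The libraries of the lines did not overlap for 5 genes higher in shTMEFF2 (9.35% of all genes) and 4 lower (9.18%) without DHT, and for 6 higher (15.5%) and 22 lower (17%) with DHT. At an unadjusted p under 0.05 there were 7 of 39 (17.9%), beside 13.5% of all genes, and DESeq2 called 1, GCNT1, beside 1.17% of all genes. With DHT, 12 of 39 differed (background 6.77%), of which 9 were lower in shTMEFF2 (background 3.74%) and 3 higher (background 3.03%), and on the adjusted p alone 21 were lower (background 9.09%) and 5 higher (background 6.93%). Without shScramble +DHT replicate 1 the count with DHT was 7, and without shTMEFF2 +DHT replicate 1 it was 8. The DHT response itself differed between the lines for 12 genes (background 4.94%), tested as the response in shTMEFF2 minus that in shScramble, or response difference. This was negative for 9 (background 3.29%) and positive for 3 (background 1.65%). Each of the 18 genes that changed with DHT in shScramble had a smaller response of the same sign in shTMEFF2. Over the whole table, 1542 of the 1835 genes called in shScramble (84%) had a smaller response of the same sign, and 1737 (94.7%) a smaller response of either sign. Genes taken for a large response in 1 line will tend to have a smaller one in the other. The test of the response difference does not pick genes by 1 line. Its count among the 39 still rests on a list chosen with earlier results of these data known.

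**Figure D1:**
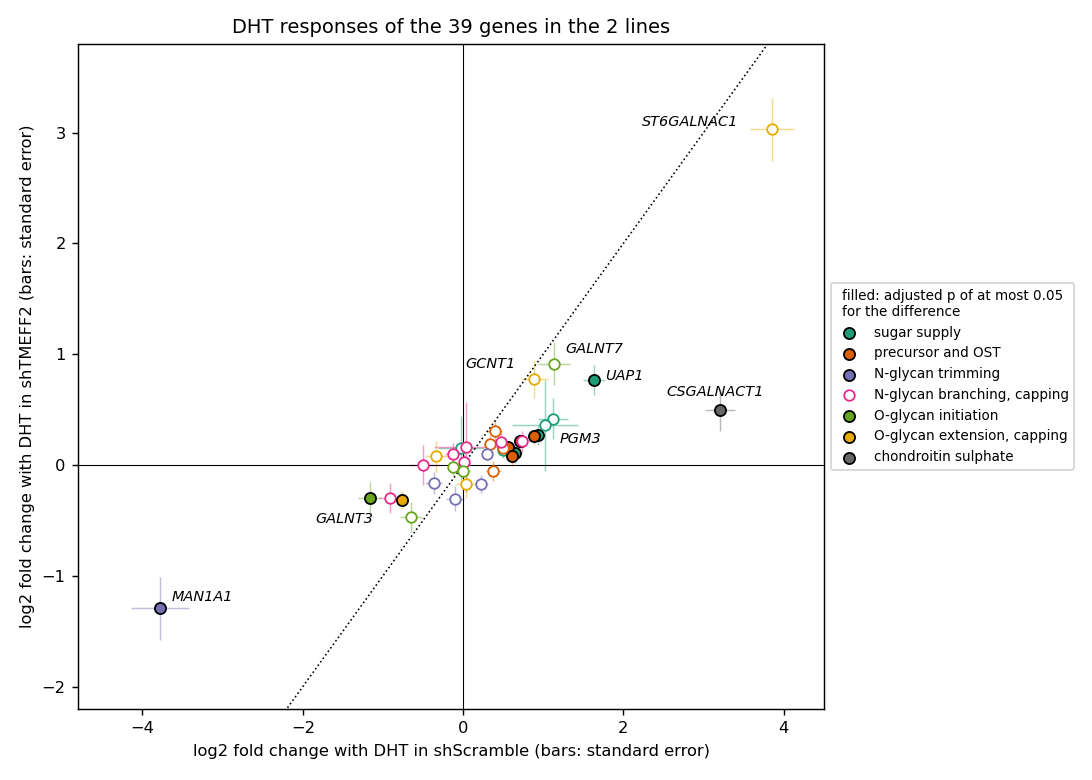
Log2 fold change with DHT in shScramble (horizontal axis) against that in shTMEFF2 (vertical axis) for the 39 genes, coloured by pathway step, with standard errors as bars and the line of equal response dotted. Filled points are the 12 genes whose response difference had an adjusted p within the 0.05 limit. The 12 filled points lie between the dotted line and the horizontal axis, with MAN1A1 at −3.78 and −1.29 and CSGALNACT1 at 3.21 and 0.50. Over all genes tested, 761 passed for the response difference. Of these, 508 (66.8%) had a smaller response of the same sign in shTMEFF2, and 707 (92.9%) a smaller response of either sign.

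The sugar supply genes rose with DHT in shScramble. Of 7 genes, 5 rose on the adjusted p (background 14.4%), 4 of them by at least 1.5-fold, and UAP1 was the single gene of the step that rose in shTMEFF2 (background 7.84%). With DHT, 5 of the 7 were lower in shTMEFF2 than in shScramble (background 9.09%), and for 3 of them the response difference passed the test with a negative sign (background 3.29%).

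GFPT1 (glutamine-fructose-6-phosphate transaminase) catalyses the rate-limiting entry into the hexosamine pathway. It was at 159, 144 and 159 CPM in shScramble −DHT, 268, 240 and 215 in shScramble +DHT, 140, 169 and 147 in shTMEFF2 −DHT and 165, 161 and 165 in shTMEFF2 +DHT. The shScramble +DHT libraries stood above all others. DHT raised GFPT1 1.56-fold in shScramble (log2 0.64 ± 0.09, adjusted p = 0.000154), while the value in shTMEFF2 was 1.07-fold (adjusted p = 0.49). Its response difference was −0.54 ± 0.12 (adjusted p = 0.025), and it missed the limit in 7 of 12 fits that left out a library (adjusted p of 0.054 to 0.070).

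GNPNAT1 acetylates glucosamine 6-phosphate, and PGM3 then moves the phosphate. GNPNAT1 was at 87.8, 106 and 105 CPM in shScramble −DHT, 225, 282 and 144 in shScramble +DHT, 110, 96.3 and 108 in shTMEFF2 −DHT and 162, 133 and 125 in shTMEFF2 +DHT. The libraries with and without DHT did not overlap in either line. GNPNAT1 rose 2.18-fold in shScramble (adjusted p = 0.000739), against 1.34-fold in shTMEFF2 (adjusted p = 0.17), and the response difference was −0.71 ± 0.26 (adjusted p = 0.17). With DHT, GNPNAT1 was 0.645 times as high in shTMEFF2 (adjusted p = 0.036), a call lost in 4 of 12 fits that left out a library (adjusted p of 0.10 to 0.16), and without shScramble +DHT replicate 2 it was 0.764 times as high (log2 −0.39, against −0.63). PGM3 varied more between replicates than any other gene of the step, with 111, 238 and 70.2 CPM in shScramble −DHT, 284, 418 and 152 in shScramble +DHT, 98.4, 99.1 and 60.5 in shTMEFF2 −DHT and 102, 135 and 94.6 in shTMEFF2 +DHT. Its log2 responses of 1.03 ± 0.41 in shScramble (adjusted p = 0.084) and 0.36 ± 0.41 in shTMEFF2 (adjusted p = 0.63) did not pass. With DHT, PGM3 was 0.388 times as high in shTMEFF2 as in shScramble (adjusted p = 0.041), with no overlap of the libraries, but the call was lost in 7 of 12 fits that left out a library (adjusted p up to 0.16).

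UAP1 makes UDP-N-acetylglucosamine, the end product of the pathway, and lies on chromosome 1 (162561722 to 162601240, plus strand, GRCh38). It was at 176, 195 and 192 CPM in shScramble −DHT, 596, 600 and 556 in shScramble +DHT, 116, 123 and 159 in shTMEFF2 −DHT and 184, 219 and 272 in shTMEFF2 +DHT. The highest shTMEFF2 +DHT library stayed below the lowest shScramble +DHT library. UAP1 rose 3.11-fold in shScramble (log2 1.64 ± 0.14, adjusted p = 3.38e-06) and 1.70-fold in shTMEFF2 (0.76 ± 0.14, adjusted p = 0.0038). Without DHT it was 0.705 times as high in shTMEFF2 as in shScramble, with no overlap of the libraries, which did not pass (adjusted p = 0.105). With DHT it was 0.385 times as high in shTMEFF2 (adjusted p = 2.68e-05). The response difference was −0.87 ± 0.19 (adjusted p = 0.021), with an adjusted p of 0.052 without either shScramble −DHT replicate 1 or shScramble +DHT replicate 1.

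GNE, NANS and CMAS make and activate sialic acid, the sugar that caps many glycans. NANS, the sialic acid synthase, was at 45.7, 51.2 and 48.5 CPM in shScramble −DHT, 97, 86.8 and 93.4 in shScramble +DHT, 50.4, 53.3 and 54.3 in shTMEFF2 −DHT and 55.2, 66.6 and 68.2 in shTMEFF2 +DHT. All shScramble +DHT libraries were above the others. It rose 1.91-fold in shScramble (log2 0.93 ± 0.09, adjusted p = 6.71e-06), against 1.20-fold in shTMEFF2 (adjusted p = 0.058), and the response difference was −0.66 ± 0.12 (adjusted p = 0.0073). CMAS, which joins sialic acid to CMP, rose less, from 71.7 ± 3.34 to 102 ± 5.52 CPM in shScramble (SD, n = 3, edgeR adjusted p = 0.000227), and its response difference of −0.36 ± 0.10 did not pass (adjusted p = 0.061). GNE, the entry enzyme of sialic acid synthesis, had 12.7 to 20.8 counts per library and group means between 0.708 and 0.845 CPM, and passed no test.

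**Figure D2:**
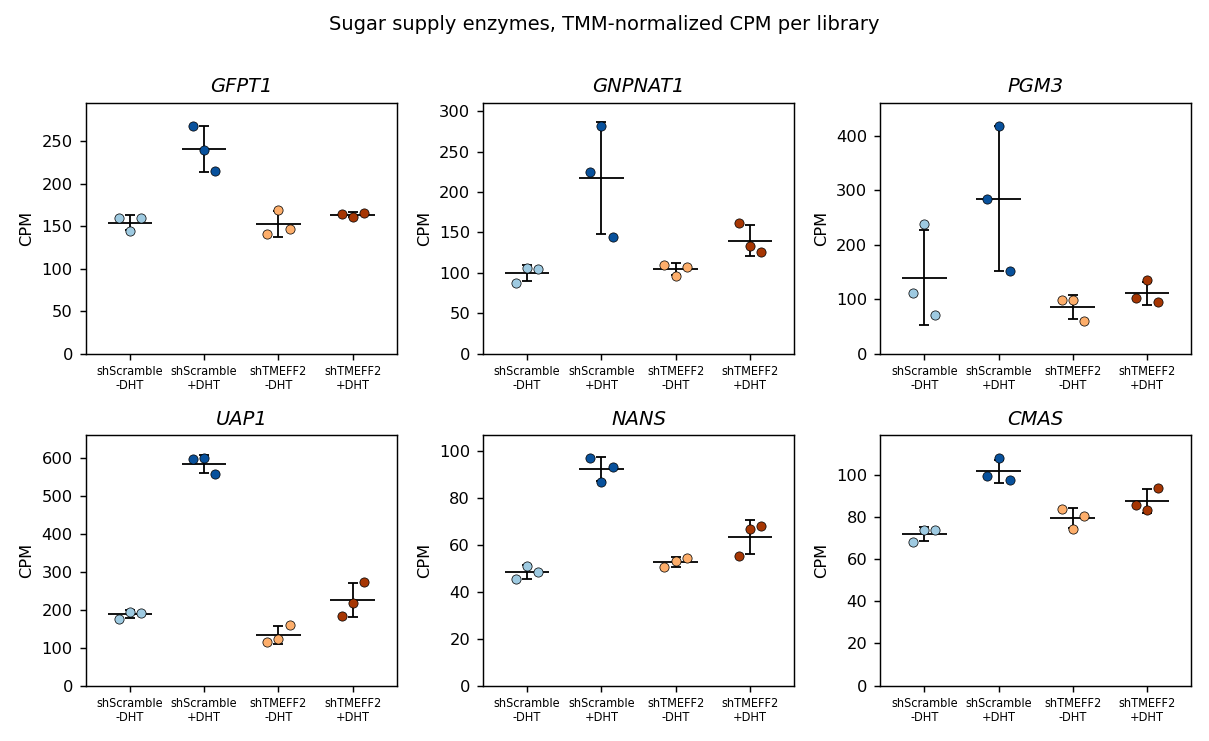
CPM of 6 sugar supply genes (vertical axes, starting at 0) in the 4 groups, 1 point per library, with the mean as a line and the SD as bars (n = 3). UAP1 is at 556 to 600 CPM in shScramble +DHT and at 184 to 272 CPM in shTMEFF2 +DHT, and the PGM3 libraries spread widely within groups.

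The promoter of NANS is shown because it carries a motif of the unfolded protein response, and GCNT1, an O-glycan gene treated further on, is the other gene of the set with that motif. RefSeq promoter windows (GRCh38.p14, around annotated start sites) were available for 30 of the 39 genes, in 52 windows, and were searched on both strands. The motif TGACGTGG, the core of the unfolded protein response element, was present in 2 of 52 windows (3.85%), beside 0.729% of all 35116 windows. The full palindromic androgen response element was in 0 of 52 windows and in 0.00285% of all, and AGAACA, a single arm of that palindrome, was in 8 of 52 (15.4%), beside 14.8% of all. The ER stress response element was in 0 of 52 (0.0769% of all), as was the ER stress response element II (0.0541% of all). A match describes letters and says nothing of binding. Capitals mark TGACGTGG and AGAACA in NANS (chr9:98056482-98056781, plus strand) and TGACGTGG read on the minus strand in GCNT1 (chr9:76458932-76459231, plus strand shown).
NANS: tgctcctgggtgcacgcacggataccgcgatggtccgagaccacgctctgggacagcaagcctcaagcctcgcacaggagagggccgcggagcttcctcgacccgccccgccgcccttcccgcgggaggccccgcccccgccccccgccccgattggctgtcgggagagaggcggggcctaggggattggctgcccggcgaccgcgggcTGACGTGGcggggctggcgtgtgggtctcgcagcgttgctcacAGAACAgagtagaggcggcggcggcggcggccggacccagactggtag
GCNT1: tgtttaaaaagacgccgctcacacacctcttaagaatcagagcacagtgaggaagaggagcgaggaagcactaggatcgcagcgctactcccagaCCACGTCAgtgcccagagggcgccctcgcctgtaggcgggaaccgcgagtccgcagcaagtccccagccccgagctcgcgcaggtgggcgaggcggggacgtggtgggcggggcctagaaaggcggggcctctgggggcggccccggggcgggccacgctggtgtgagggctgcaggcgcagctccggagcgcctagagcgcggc

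Genes of the lipid-linked precursor and the oligosaccharyltransferase rose in shScramble. On the adjusted p, 9 of 9 rose with DHT there (background 14.4%), 4 of them by at least 1.5-fold, with a median log2 response of 0.56. In shTMEFF2, 4 of 9 rose (background 7.84%) and 0 reached 1.5-fold, and the median was 0.19. With DHT, 8 of 9 were lower in shTMEFF2 (background 9.09%), and the response difference was negative for all 9 and passed for 5 (background 3.29%; OSTC, STT3A, RPN1, RPN2 and MAGT1).

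STT3A is the catalytic subunit of the complex that acts on nascent chains at the translocon. It was at 247, 255 and 262 CPM in shScramble −DHT, 452, 421 and 390 in shScramble +DHT, 257, 254 and 248 in shTMEFF2 −DHT and 287, 292 and 302 in shTMEFF2 +DHT. The untreated lines overlapped, and the treated groups were apart. It rose 1.65-fold in shScramble (log2 0.72 ± 0.06, adjusted p = 2.45e-06) and 1.16-fold in shTMEFF2 (0.21 ± 0.06, adjusted p = 0.03), with a response difference of −0.51 ± 0.08 (adjusted p = 0.0039). OSTC, an accessory subunit found with STT3A (chromosome 4, 108650585 to 108667820, plus strand, GRCh38), was at 67.3, 67.4 and 65.4 CPM in shScramble −DHT, 134, 115 and 120 in shScramble +DHT, 67.6, 64 and 63.7 in shTMEFF2 −DHT and 79.6, 78.8 and 75 in shTMEFF2 +DHT. Again the untreated lines overlapped and shScramble +DHT stood above shTMEFF2 +DHT. OSTC rose 1.84-fold in shScramble (adjusted p = 1.22e-06) and 1.20-fold in shTMEFF2 (adjusted p = 0.022), and its response difference was −0.62 ± 0.09 (adjusted p = 0.0021).

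RPN1 and RPN2, the ribophorins, are structural subunits of the complex. RPN1 was at 260, 262 and 275 CPM in shScramble −DHT, 449, 415 and 444 in shScramble +DHT, 261, 264 and 273 in shTMEFF2 −DHT and 284, 321 and 323 in shTMEFF2 +DHT. It rose 1.64-fold in shScramble (adjusted p = 3.62e-06) and 1.16-fold in shTMEFF2 (adjusted p = 0.033), and the response difference was −0.50 ± 0.09 (adjusted p = 0.0054). RPN2 was at 412, 412 and 406 CPM in shScramble −DHT, 628, 578 and 601 in shScramble +DHT, 415, 443 and 436 in shTMEFF2 −DHT and 476, 488 and 485 in shTMEFF2 +DHT. Its treated libraries were above its untreated libraries in both lines, and the shScramble +DHT libraries were the highest. RPN2 rose 1.47-fold in shScramble (adjusted p = 4.61e-06) and 1.12-fold in shTMEFF2 (adjusted p = 0.044), with a response difference of −0.39 ± 0.07 (adjusted p = 0.0057). The small rises in shTMEFF2 were less firm than those in shScramble. Leaving out 1 library took the adjusted p over the limit in 4 of 12 fits for RPN1 and for OSTC, in 5 for STT3A and in 9 for RPN2, with the highest value, 0.16, for RPN2.

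MAGT1 and TUSC3 are alternative thiol oxidoreductase subunits that go with STT3B. MAGT1 was at 157, 142 and 139 CPM in shScramble −DHT, 253, 202 and 217 in shScramble +DHT, 149, 151 and 130 in shTMEFF2 −DHT and 156, 151 and 147 in shTMEFF2 +DHT. The shTMEFF2 libraries with and without DHT overlapped. MAGT1 rose 1.53-fold in shScramble (adjusted p = 0.000227), against 1.06-fold in shTMEFF2 (adjusted p = 0.62), and the response difference of −0.54 ± 0.12 (adjusted p = 0.027) missed the limit in 7 of 12 fits that left out a library (adjusted p of 0.057 to 0.074). DDOST, another core subunit, was at 158, 161 and 145 CPM in shScramble −DHT, 226, 180 and 197 in shScramble +DHT, 125, 139 and 148 in shTMEFF2 −DHT and 123, 138 and 135 in shTMEFF2 +DHT. It rose 1.30-fold in shScramble (adjusted p = 0.0079) and, with DHT, was 0.658 times as high in shTMEFF2 (adjusted p = 0.00065), but its response difference of −0.43 ± 0.13 did not pass (adjusted p = 0.077). The other genes of the step rose more weakly in shScramble, by a log2 of 0.40 for DPAGT1, which makes the first sugar-lipid of the precursor, 0.34 for STT3B, the other catalytic subunit, and 0.49 for TUSC3. Response differences of these 3 were −0.09, −0.15 and −0.34 and did not pass the test.

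**Figure D3:**
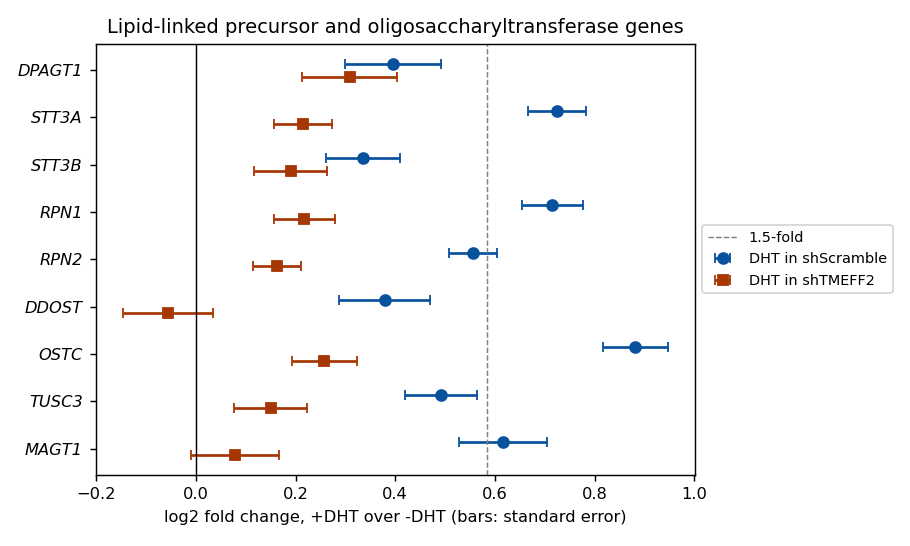
Log2 fold change with DHT (horizontal axis) of the 9 precursor and oligosaccharyltransferase genes in shScramble (circles) and shTMEFF2 (squares), with standard errors as bars. All 9 circles lie right of 0 and each square lies left of its circle, with OSTC at 0.88 and 0.26 and DDOST at 0.38 and −0.06.

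N-glycan trimming genes did not move together. In shScramble, 1 of 5 rose (GANAB) and 2 fell (MAN1A1 and MAN2A1) on the adjusted p (background 14.4% and 12.6%). MAN1A1, a Golgi mannosidase that trims mannose before branching, had the largest fall of the 39 genes in both lines (chromosome 6, 119177205 to 119349761, minus strand, GRCh38). It was at 9.01, 9.71 and 19 CPM in shScramble −DHT, 0.505, 0.83 and 1.4 in shScramble +DHT, 21.1, 20.3 and 19.9 in shTMEFF2 −DHT and 10.5, 7.53 and 6.99 in shTMEFF2 +DHT. Every shTMEFF2 +DHT library lay above every shScramble +DHT library, and the lowest library held 9.8 estimated counts. MAN1A1 was 0.0729 times as high with DHT in shScramble (log2 −3.78 ± 0.36, adjusted p = 9.31e-06) and 0.408 times in shTMEFF2 (−1.29 ± 0.28, adjusted p = 0.011). With DHT it was 9.07-fold higher in shTMEFF2 than in shScramble (adjusted p = 8.25e-05), and the response difference was 2.48 ± 0.46 (adjusted p = 0.0084). Without shTMEFF2 +DHT replicate 3, its fall in shTMEFF2 had an adjusted p of 0.057.

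The other trimming genes moved little. GANAB, the catalytic subunit of glucosidase II, rose from 606 ± 11 to 747 ± 50.2 CPM in shScramble (SD, n = 3, edgeR adjusted p = 0.0011), and MAN2A1, a Golgi mannosidase, fell from 36.7 ± 2.97 to 28.4 ± 3.79 CPM (edgeR adjusted p = 0.017). The fall of MAN2A1 missed the limit without shScramble −DHT replicate 3, shScramble +DHT replicate 1 or shScramble +DHT replicate 3 (adjusted p of 0.060 to 0.072). MOGS, glucosidase I, had log2 responses of 0.23 in shScramble and −0.17 in shTMEFF2, neither of which passed, and it was lower in shTMEFF2 with DHT (−0.36, adjusted p = 0.009, but 0.051 without shScramble +DHT replicate 1). MAN1A2, a second Golgi mannosidase of the MAN1A kind, had responses of −0.10 and −0.30 that did not pass.

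Branching and capping of N-glycans showed changes in opposite directions. Of 7 genes, 2 rose and 1 fell with DHT in shScramble on the adjusted p (background 14.4% and 12.6%). By at least 1.5-fold, 1 rose and 1 fell there (background 5.45% and 6.45%). In shTMEFF2, 0 of 7 changed on the adjusted p (background 13.1%). FUT8, which adds core fucose, was at 34.7, 30.3 and 30.4 CPM in shScramble −DHT, 15.1, 19.4 and 16.3 in shScramble +DHT, 33.9, 35.3 and 25.9 in shTMEFF2 −DHT and 29.5, 24.6 and 23.1 in shTMEFF2 +DHT. The shScramble +DHT libraries were below all others. FUT8 fell to 0.533 times its level in shScramble (log2 −0.91 ± 0.14, adjusted p = 0.000383), against 0.812 times in shTMEFF2 (adjusted p = 0.17). With DHT it was 1.52-fold higher in shTMEFF2 (adjusted p = 0.011), and the response difference was 0.61 ± 0.19 (adjusted p = 0.10).

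B4GALT1, which adds galactose, was at 88.3, 95.9 and 105 CPM in shScramble −DHT, 141, 163 and 175 in shScramble +DHT, 107, 105 and 115 in shTMEFF2 −DHT and 113, 126 and 140 in shTMEFF2 +DHT. The highest shTMEFF2 +DHT library was just below the lowest shScramble +DHT library. B4GALT1 rose 1.66-fold in shScramble (adjusted p = 0.000148), against 1.16-fold in shTMEFF2 (adjusted p = 0.18), and the response difference was −0.52 ± 0.14 (adjusted p = 0.053). MGAT2, an N-acetylglucosaminyltransferase that starts the second antenna, rose from 45.4 ± 4.09 to 63.1 ± 1.86 CPM in shScramble (SD, n = 3, edgeR adjusted p = 0.00076). The other branching enzymes, MGAT1, MGAT4A and MGAT5, had log2 responses between −0.50 and 0.10 in the 2 lines, none past the test. The sialyltransferase ST6GAL1 was low, with group means between 2.74 and 3.07 CPM, and passed no test.

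O-glycan initiation, by the polypeptide N-acetylgalactosaminyltransferases (GALNT), also split by enzyme. In shScramble 1 of 5 rose and 2 fell by at least 1.5-fold (background 5.45% and 6.45%). GALNT3 was at 137, 123 and 90.3 CPM in shScramble −DHT, 53.2, 51.1 and 52.1 in shScramble +DHT, 107, 104 and 91.6 in shTMEFF2 −DHT and 98.2, 73.1 and 75.4 in shTMEFF2 +DHT. The shScramble +DHT libraries were close to each other and below all others, and the shTMEFF2 groups overlapped. GALNT3 fell to 0.446 times its level in shScramble (log2 −1.17 ± 0.14, adjusted p = 7.72e-05), against 0.816 times in shTMEFF2 (adjusted p = 0.20). With DHT it was higher in shTMEFF2 than in shScramble (log2 0.66, adjusted p = 0.0079). The response difference was 0.87 ± 0.20 (adjusted p = 0.026), which missed the limit in 8 of 12 fits that left out a library (adjusted p of 0.052 to 0.068).

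GALNT7, a follow-up enzyme that acts on partly glycosylated peptides, rose in both lines. It was at 68.4, 95.4 and 103 CPM in shScramble −DHT, 182, 204 and 200 in shScramble +DHT, 66.6, 44.8 and 83.8 in shTMEFF2 −DHT and 112, 115 and 142 in shTMEFF2 +DHT. The rise was 2.20-fold in shScramble (adjusted p = 0.00097) and 1.89-fold in shTMEFF2 (adjusted p = 0.01), and the response difference was −0.22 ± 0.28 (adjusted p = 0.76). With DHT, GALNT7 was lower in shTMEFF2 than in shScramble (log2 −0.67, adjusted p = 0.033). This call was lost in 5 of 12 fits that left out a library (adjusted p of 0.065 to 0.11). GALNT10 was at 80, 88.1 and 97.4 CPM in shScramble −DHT, 58.2, 51.4 and 59 in shScramble +DHT, 101, 137 and 87.5 in shTMEFF2 −DHT and 75, 84.3 and 76.1 in shTMEFF2 +DHT. In each line the treated libraries were below the untreated libraries. GALNT10 fell to 0.636 times its level in shScramble (adjusted p = 0.0037) and to 0.722 times in shTMEFF2 (adjusted p = 0.04), the latter lost in 9 of 12 fits that left out a library (adjusted p of 0.05 to 0.15). Without shTMEFF2 −DHT replicate 2 the level in shTMEFF2 with DHT was 0.831 times that without (log2 −0.27, against −0.47). With DHT, GALNT10 was higher in shTMEFF2 than in shScramble (log2 0.48, adjusted p = 0.032). That difference was lost in 6 of 12 fits that left out a library (adjusted p of 0.056 to 0.10). GALNT1 and GALNT2, broadly expressed initiating enzymes, had log2 responses between −0.12 and −0.00 in both lines and did not pass.

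Extension, branching and capping of O-glycans held the strongest rise of the 39 genes. ST6GALNAC1, the sialyltransferase that makes the sialyl-Tn structure on mucin-type O-glycans (chromosome 17, 76624761 to 76643786, minus strand, GRCh38), was at 3.12, 1.34 and 3.08 CPM in shScramble −DHT, 36.9, 40.5 and 32.8 in shScramble +DHT, 2.16, 2.04 and 1.25 in shTMEFF2 −DHT and 11.5, 18.8 and 14.4 in shTMEFF2 +DHT. It was high in every treated library, less so in shTMEFF2. The rise was 14.5-fold in shScramble (log2 3.86 ± 0.28, adjusted p = 9.5e-07) and 8.17-fold in shTMEFF2 (3.03 ± 0.29, adjusted p = 0.00012). With DHT the level in shTMEFF2 was 0.406 times that in shScramble (adjusted p = 0.0026), while the response difference of −0.83 ± 0.40 did not pass (adjusted p = 0.31).

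ST3GAL1, which caps the core 1 structure with sialic acid, went the other way. It was at 565, 504 and 532 CPM in shScramble −DHT, 332, 322 and 288 in shScramble +DHT, 557, 591 and 514 in shTMEFF2 −DHT and 468, 471 and 400 in shTMEFF2 +DHT. The untreated lines overlapped and the treated ones did not. ST3GAL1 fell to 0.589 times its level in shScramble (log2 −0.76 ± 0.08, adjusted p = 2.32e-05) and to 0.806 times in shTMEFF2 (−0.31 ± 0.08, adjusted p = 0.025). Its response difference was 0.45 ± 0.11 (adjusted p = 0.041), lost in 9 of 12 fits that left out a library (adjusted p of 0.056 to 0.098).

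GCNT1, which makes the core 2 branch, rose in both lines. It went from 68.7 ± 4.91 to 127 ± 9.39 CPM in shScramble (SD, n = 3, edgeR adjusted p = 0.0021) and from 40.7 ± 13 to 69.8 ± 9.88 CPM in shTMEFF2 (SD, n = 3, edgeR adjusted p = 0.012). With DHT it was 0.55 times as high in shTMEFF2 (adjusted p = 0.0044), without DHT the ratio was 0.593 (adjusted p = 0.066), and the response difference was −0.11 ± 0.24 (adjusted p = 0.88). Its rise in shTMEFF2 had an adjusted p of 0.054 or 0.057 without shTMEFF2 −DHT replicate 1 or shTMEFF2 +DHT replicate 3. C1GALT1, the core 1 galactosyltransferase, had log2 responses of −0.33 and 0.08 that did not pass, and GCNT2, which branches poly-N-acetyllactosamine, had responses of 0.03 and −0.17. GCNT2 was lower in shTMEFF2 than in shScramble with DHT (log2 −0.52, adjusted p = 0.017), a call lost in 4 of 12 fits that left out a library (adjusted p of 0.05 to 0.068).

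CSGALNACT1, which starts the chondroitin sulphate chain on the linker sugar of proteoglycans, had the largest response difference of the 39 genes. It was at 2.62, 2.36 and 3.33 CPM in shScramble −DHT, 30.6, 25 and 21.4 in shScramble +DHT, 2.69, 2.79 and 3.76 in shTMEFF2 −DHT and 4.07, 4.38 and 4.58 in shTMEFF2 +DHT. The shScramble +DHT libraries alone were high, and the lowest of them was above every shTMEFF2 +DHT library. The rise was 9.24-fold in shScramble (log2 3.21 ± 0.19, adjusted p = 1.84e-07), against 1.41-fold in shTMEFF2 (0.50 ± 0.19, adjusted p = 0.10). With DHT the level in shTMEFF2 was 0.17 times that in shScramble (adjusted p = 2.08e-06), and the response difference was −2.71 ± 0.26 (adjusted p = 0.000146).

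**Figure D4:**
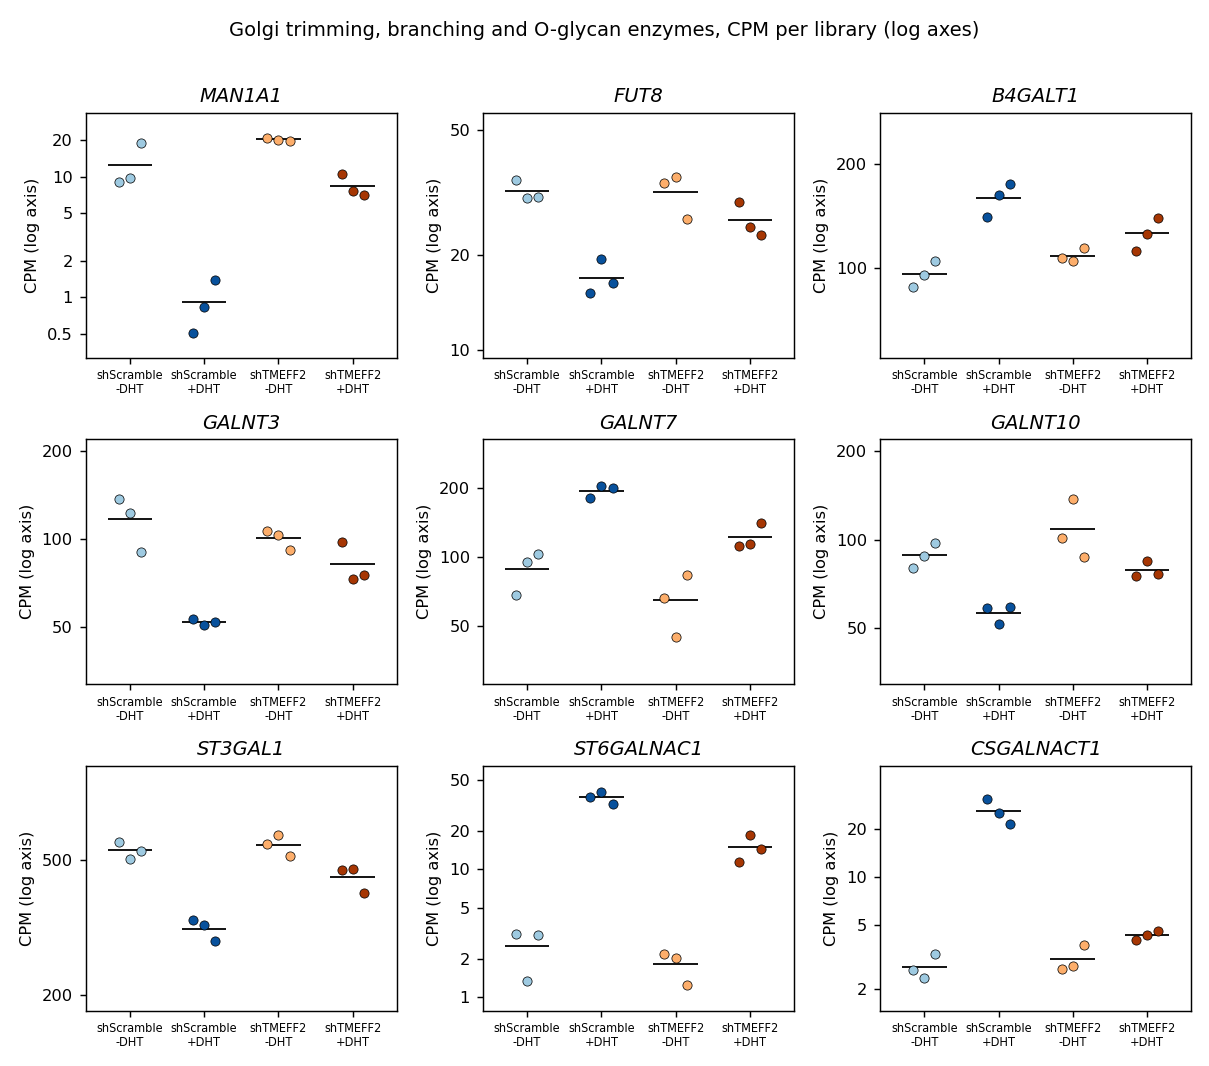
CPM (log axes) of 9 genes of N-glycan trimming, branching, O-glycan synthesis and chondroitin initiation in the 4 groups, 1 point per library with the group mean as a line. MAN1A1, FUT8, GALNT3, GALNT10 and ST3GAL1 are lowest in shScramble +DHT, while ST6GALNAC1 and CSGALNACT1 reach 32.8 to 40.5 CPM and 21.4 to 30.6 CPM there.

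A wider list of 101 genes of the same pathways, of which 91 passed the filter, is given for context. In shScramble 30 of 91 rose and 9 fell with DHT on the adjusted p (background 14.4% and 12.6%), and in shTMEFF2 5 rose and 2 fell (background 7.84% and 5.21%). With DHT, 23 of 91 were lower in shTMEFF2 and 1 was higher on the adjusted p (background 9.09% and 6.93%). Among the 4 other oligosaccharyltransferase subunits, DAD1, KRTCAP2 and TMEM258 rose in shScramble by a log2 of 0.47, 0.34 and 0.42 (background 14.4%). All 4, OST4 included, were lower in shTMEFF2 with DHT, by 0.31 to 0.41 (background 9.09%). Of 20 dolichol and precursor genes 10 rose in shScramble and 1, ALG13, fell (background 14.4% and 12.6%). Of 7 sugar nucleotide carriers 1 rose (background 14.4%), the UDP-galactose carrier SLC35A2 (log2 0.43).

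The response difference passed for 9 of these 91 genes (background 4.94%), 7 negative (background 3.29%) and 2 positive (background 1.65%). GMPPA and GMPPB, which make or regulate the making of GDP-mannose, rose 1.73-fold and 1.87-fold in shScramble (adjusted p = 0.000168 and 9.3e-06), with response differences of −0.84 ± 0.15 and −0.72 ± 0.12 (adjusted p = 0.0083 and 0.0049). CHPF, a chondroitin polymerising factor, rose 1.77-fold in shScramble (adjusted p = 0.000158) with a response difference of −0.75 ± 0.16 (adjusted p = 0.018). TMEM258, ALG2 and DAD1 had response differences of −0.47 ± 0.09, −0.44 ± 0.11 and −0.39 ± 0.10 (adjusted p = 0.0085, 0.032 and 0.035), and those of ALG2 and DAD1 were each lost in 10 of 12 fits that left out a library (adjusted p up to 0.080 and 0.095). The 3 others were O-glycan genes with few counts, whose response difference was lost in 11 of 12 fits that left out a library for GALNT12, in 10 for GALNT14 and in 3 for ST6GALNAC5 (adjusted p up to 0.092, 0.11 and 0.068). GALNT12 had 18, 23 and 21 counts in shScramble +DHT and 5 to 13 counts in the other libraries, GALNT14 had 2, 2 and 4 counts in shScramble +DHT and 6 to 20 elsewhere, and ST6GALNAC5 had 2, 0 and 1 counts in shScramble +DHT, 14, 24 and 20 in shScramble −DHT and 3 to 8 in shTMEFF2.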

How the data were processed

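RNA-seq of 12 LNCaP libraries was used, 3 in each of 4 groups taken from the sample titles. According to the study's methods and the submitters' processing notes, reads were checked with FastQC, filtered for contaminants, trimmed with Trimmomatic and quantified with kallisto 0.42.3 against the GRCh38 transcriptome. The authors deposited estimated counts per gene (tximport, length-scaled TPM), which are not whole numbers, with 2 columns per library; whether strand was used is not given in the sources used here.

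The 2 columns were summed and rounded. Genes passing edgeR's filterByExpr (minimum count 10, minimum total 15) were TMM-normalized, and CPM values use these library sizes. The edgeR 4.0.16 quasi-likelihood test (R 4.3.3) had 1 coefficient per group over 12 libraries, and p-values were adjusted by Benjamini-Hochberg over 15419 genes. A change was called at 1.5-fold with an adjusted p no higher than 0.05, and the response difference on that p alone. The 39 genes and all lists were chosen with earlier results of these data known. Genes called in a comparison are given library by library (the 20 with the smallest p for the response difference), and pathway genes are named where that difference passed. The scripts were tested on simulated data. Alternatives were DESeq2 1.42.0, its size factors, library size only, no filter, a mean above 5 CPM, limma-voom 3.58.1 on unrounded counts, a replicate block, the 6 libraries of a comparison, and leaving out each library. Gene positions are from GENCODE (GRCh38), the build named for the authors' transcriptome, and promoter windows from RefSeq (GRCh38.p14); STT3B, RPN1, TUSC3, MOGS, MAN1A2, MGAT4A, ST3GAL1, ST6GALNAC1 and CSGALNACT1 had no window. Depth of 19450866 to 22612046 counts per library limits genes such as GNE. All columns of the table were used.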

Additional observations from a re-analysis of the deposited data

Results flagged for a closer look

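The DHT response differed between the lines, by the edgeR test of the response in shTMEFF2 minus that in shScramble, for 12 of the 39 genes and 9 of 91 other genes tested of the same pathways. The share over all genes tested was 4.94%. Among the 39 genes, the log2 response difference was −0.87 for UAP1, −0.66 for NANS and −0.54 for GFPT1 in sugar supply. In the oligosaccharyltransferase it was −0.62 for OSTC, −0.54 for MAGT1, −0.51 for STT3A, −0.5 for RPN1 and −0.39 for RPN2. Genes that fell with DHT in shScramble had positive values, of 2.48 for MAN1A1, 0.87 for GALNT3 and 0.45 for ST3GAL1. CSGALNACT1 had the value furthest from 0 among the 39 genes, −2.71.

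Among the other pathway genes it was −0.84 for GMPPA, −0.72 for GMPPB, −0.75 for CHPF, −0.47 for TMEM258, −0.44 for ALG2 and −0.39 for DAD1. The 3 low-count O-glycan genes had fitted values of −2.29 (GALNT12), 2.78 (GALNT14) and 4.16 (ST6GALNAC5), which depend on the prior count where a group has few counts. ST6GALNAC5 had at most 2 counts in each shScramble +DHT library.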

How the results depend on the processing

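No log2 fold change of a named gene changed sign where it had passed the test, under any of 20 alternatives (19 for the response difference). Of 104 such values, 73 passed under all alternatives, and 182 of 2047 refitted values were lost. On the adjusted p alone, the losses for the 39 genes were 3 of 540 for DHT in shScramble (all MAN2A1) and 43 of 220 for DHT in shTMEFF2. The losses were 42 of 520 between the lines with DHT and 33 of 228 for the response difference. With the 1.5-fold limit, calls for DHT in shScramble also ended for GFPT1 and MAGT1 with library size only or without shScramble +DHT replicate 1. Without shScramble −DHT replicate 3 they ended for GALNT10 and MAGT1. Between the lines with DHT, DDOST, FUT8 and OSTC fell under that limit without shScramble +DHT replicate 1. DDOST, FUT8 and GALNT3 did so without shTMEFF2 +DHT replicate 1, and DDOST and FUT8 also in other fits. The response difference passed in all 19 for CSGALNACT1, OSTC, STT3A, RPN1, RPN2, NANS, MAN1A1, GMPPB, GMPPA, TMEM258 and CHPF.

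The count of genes that differed between the lines without DHT, 0 of 39, was 1 with DESeq2, 1 with no filter, 1 with limma-voom and 1 with the replicate block. Leaving out 1 library gave counts of 16 to 19 for DHT in shScramble, 3 to 7 in shTMEFF2, 0 to 2 between the lines without DHT, 7 to 12 with DHT and 8 to 11 for the response difference. The lowest counts came without shTMEFF2 +DHT replicate 3 for DHT in shTMEFF2, without shScramble +DHT replicate 1 between the lines with DHT and without shScramble −DHT replicate 2 for the response difference, and the 2 without DHT came without shTMEFF2 −DHT replicate 3. With DHT, library size only gave 9, and DESeq2 gave 17 for the response difference. The cause was not tested. Replicate numbers did not meet the limit set for pairing, r over 0.1 in every pair of deviations from the group means, which 3 of 18 same-numbered pairs passed. Of these 18, 17 were above 0 (−0.002 to 0.169), beside 5 of 36 pairs of different numbers (−0.14 to 0.066), a hint from the data and not from the design. With the replicate block the counts were 19, 5, 1 and 12 for the 4 comparisons and 14 for the response difference, with PGM3 added for DHT in shScramble (adjusted p = 0.0032), GCNT1 without DHT (0.029) and B4GALT1 and MOGS for the response difference (0.0033 and 0.039). On the adjusted p alone the block also added MOGS (0.032) and MGAT4A (0.040) for DHT in shScramble, NANS (0.045) and B4GALT1 (0.032) in shTMEFF2 and UAP1 (0.038) without DHT. TMEFF2 was lower in shTMEFF2 in 6 of 6 same-numbered pairs, with a blocked adjusted p of 0.12 without and 0.069 with DHT.

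For part of the genes, the libraries whose removal took the adjusted p over the limit are listed here by replicate number. For the response difference of GFPT1 they were shScramble −DHT 2, shScramble +DHT 1 and 2, shTMEFF2 −DHT 2 and shTMEFF2 +DHT 1, 2 and 3. For that of MAGT1 they were shScramble −DHT 2 and 3, shScramble +DHT 1, shTMEFF2 −DHT 1 and 2 and shTMEFF2 +DHT 2 and 3. GALNT3 lost it without shScramble −DHT 1 or 2, any shScramble +DHT library, shTMEFF2 −DHT 2 or 3 or shTMEFF2 +DHT 1, and ST3GAL1 without any shScramble −DHT library, shScramble +DHT 2 or 3, shTMEFF2 −DHT 1 or 3 or shTMEFF2 +DHT 1 or 2. For the rise in shTMEFF2 they were shTMEFF2 −DHT 2 and 3 and +DHT 1 and 2 for OSTC, −DHT 1, 2 and 3 and +DHT 2 and 3 for STT3A and −DHT 1 and 2 and +DHT 2 and 3 for RPN1. RPN2 lost its rise there without any shTMEFF2 library, shScramble −DHT 1 or 2 or shScramble +DHT 3, and GALNT10 kept its fall there only without shScramble −DHT 1 or 3 or shTMEFF2 −DHT 3. Between the lines with DHT, GNPNAT1 depended on shScramble +DHT 1 and 2 and shTMEFF2 +DHT 2 and 3, PGM3 on these, shTMEFF2 +DHT 1 and shTMEFF2 −DHT 1 and 2, GCNT2 on shScramble +DHT 2 and 3 and shTMEFF2 +DHT 1 and 3, STT3B on shScramble +DHT 1 and shTMEFF2 +DHT 2, and MGAT2 on shScramble +DHT 3 and shTMEFF2 +DHT 1. In the same comparison, B4GALT1 depended on shScramble +DHT 2 and 3 and shTMEFF2 +DHT 1 and 2. GALNT7 depended on every shScramble +DHT library and shTMEFF2 +DHT 1 and 2, GALNT10 on every library with DHT and MOGS on shScramble +DHT 1.

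With 3 libraries per group, the response difference has a larger error than a comparison of 2 groups, and a gene that missed its limit is not shown to respond alike. GNE, ST6GAL1, GALNT12, GALNT14 and ST6GALNAC5 are limited by depth.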
